A study of Caenorhabditis elegans with 2 samples.

Results

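The 612 nuclear tRNA genes of Caenorhabditis elegans were taken as all genes of biotype tRNA on the 6 nuclear chromosomes in the Ensembl 115 annotation of WBcel235, out of 46890 nuclear genes in all. They were sorted by whether a ZIP-5-eGFP summit, the highest point of a peak as deposited, lay within 100 bp of the gene. For comparison, 209 tRNA pseudogenes annotated on the same chromosomes were counted in the same way. The material was chromatin of hermaphrodite late embryos of strain OP544, genotype unc-119(tm4063) III; wgIs544, harvested whole 4 hours after egg bleaching. These worms stably carry a transgene, whose promoter the labels do not name, for the bZIP (basic leucine zipper) factor ZIP-5 with a GFP-FLAG tag at its C-terminus, and an antibody against GFP was used for chromatin immunoprecipitation sequencing (ChIP-seq). There were 2 biological replicates of this 1 group, both carrying the unc-119 mutation and the transgene, and no other genotype, stage or antibody was analysed here.

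Transfer RNA genes are short genes read by RNA polymerase III. Their promoter lies inside the gene, as an A box and a B box that the factor TFIIIC recognises. TFIIIC places TFIIIB just upstream of the start, TFIIIB recruits the polymerase, and a run of T residues on the coding strand ends transcription. Many tRNA genes exist as identical copies scattered over the chromosomes, so that 1 tRNA species is made from several loci whose flanks differ. Whole embryos mix many cell types, and a summit in such material does not say in which cells the DNA was recovered.

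The lists held between 746 and 6945 peaks and carry no read counts, so the sequencing depth is unknown. About 1 tRNA gene in 5 had a summit in the optimal list, the set of peaks that the authors kept for agreement between replicates. It held 123 of 612 tRNA genes (20.1%, 95% interval 17.0 to 23.5), against 1.36% of all nuclear genes. Intervals here are exact Clopper-Pearson intervals, cover counting error only, and treat genes as separate although neighbours share summits. The less strict lists, deposited as input for that selection, held more tRNA genes. A summit lay near 210 genes in the replicate 1 list (34.3%, against 8.26% of all genes) and near 243 in the replicate 2 list (39.7%, against 9.2%). In the list called on both alignments together it lay near 232 genes (37.9%, against 6.25%), and 178 genes had one in both replicate lists (29.1%, against 4.29%). No list placed a summit within 100 bp of 334 genes (54.6%, 50.5 to 58.6), and the remaining 155 (25.3%, 21.9 to 29.0) had one only outside the optimal list. Of the 123 genes of the optimal list, 120 were in both replicate lists, 2 in that of replicate 2 alone and 1 in that of replicate 1 alone. The optimal list was derived from the other lists, so this overlap was built in.

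The sequences below, from the RefSeq genome of the same build (WBcel235), show what the internal promoter of these genes looks like and what lies before it. Each gene is written 5′ to 3′ on its own strand, with the match to the B box pattern GTTCNANNC in capitals. Each upstream stretch is the 100 bases before the 5′ end, on the same strand, with GAGAGA or its reverse complement TCTCTC in capitals. The first gene, C04A11.t1 (WBGene00000308, tRNA-Leu, chrX:13665555-13665673, plus strand, upstream chrX:13665455-13665554), had the strongest tRNA peak of the optimal list.
C04A11.t1 gene: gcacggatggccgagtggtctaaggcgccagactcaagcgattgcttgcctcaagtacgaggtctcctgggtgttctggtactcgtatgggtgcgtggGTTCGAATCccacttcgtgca
C04A11.t1 upstream: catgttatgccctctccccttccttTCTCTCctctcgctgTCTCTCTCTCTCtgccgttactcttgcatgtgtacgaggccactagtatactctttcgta
The next, F15G9.t1 (WBGene00014333, tRNA-Ala, chrX:9743589-9743660, plus strand, upstream chrX:9743489-9743588), was also among the 10 strongest.
F15G9.t1 gene: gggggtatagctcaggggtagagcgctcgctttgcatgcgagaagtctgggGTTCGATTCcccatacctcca
F15G9.t1 upstream: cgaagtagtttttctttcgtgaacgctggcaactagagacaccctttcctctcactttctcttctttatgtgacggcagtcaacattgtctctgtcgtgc
ZC455.t1 (WBGene00014619, tRNA-Ser, chrV:12780386-12780467, minus strand, upstream chrV:12780468-12780567) had the strongest peak of chromosome V.
ZC455.t1 gene: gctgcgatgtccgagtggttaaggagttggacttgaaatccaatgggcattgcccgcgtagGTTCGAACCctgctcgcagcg
ZC455.t1 upstream: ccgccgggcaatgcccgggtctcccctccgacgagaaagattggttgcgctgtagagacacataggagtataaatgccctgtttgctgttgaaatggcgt
C33G3.t2 (WBGene00014275, tRNA-Lys, chrX:14063946-14064018, minus strand, upstream chrX:14064019-14064118) was the last of the 10.
C33G3.t2 gene: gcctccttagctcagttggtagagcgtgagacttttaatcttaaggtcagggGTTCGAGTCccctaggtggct
C33G3.t2 upstream: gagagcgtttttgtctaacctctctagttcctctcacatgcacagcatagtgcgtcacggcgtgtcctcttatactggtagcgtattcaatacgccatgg
T23F1.t2 (WBGene00014532, tRNA-Pro, chrV:15465225-15465296, minus strand, upstream chrV:15465297-15465396) and ZK970.t1 (WBGene00014635, tRNA-Pro, chrII:10302399-10302470, plus strand, upstream chrII:10302299-10302398) are identical throughout the gene but differ before it. T23F1.t2 had a summit in the optimal list, shared with the neighbouring gene T23F1.t1, and ZK970.t1 had none in any list.
T23F1.t2 gene: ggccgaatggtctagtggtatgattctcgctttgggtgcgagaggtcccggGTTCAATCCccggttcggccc
T23F1.t2 upstream: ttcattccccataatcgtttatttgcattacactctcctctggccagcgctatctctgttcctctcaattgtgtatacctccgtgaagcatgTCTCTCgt
ZK970.t1 gene: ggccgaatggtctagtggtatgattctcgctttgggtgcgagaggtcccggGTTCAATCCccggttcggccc
ZK970.t1 upstream: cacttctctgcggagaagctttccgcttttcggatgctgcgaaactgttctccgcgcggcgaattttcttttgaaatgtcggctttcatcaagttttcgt

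The B box pattern, a TTTT word downstream and the base composition of the gene were nearly the same with and without a summit. The A box was not compared, so the internal promoter was examined only in part. The B box pattern and TTTT were present in nearly all tRNA genes, which left little room for a difference. The B box pattern, searched on both strands of the gene, was present in 118 of the 123 genes of the optimal list (95.9%, 90.8 to 98.7), in 150 of the 155 genes of the other lists only (96.8%) and in 320 of the 334 genes of no list (95.8%, 93.1 to 97.7). Windows of the same length 500 bp to either side of the tRNA genes held it in 4.9% of cases. The terminator word TTTT lay within 30 bp downstream of all 123 genes of the optimal list, all 155 of the other lists only and 327 of the 334 of no list (97.9%). The genes were also alike in base composition, with a median G+C content of 58.9% in the optimal list, 58.3% in the other lists only and 58.3% in no list. A match to a pattern is a description of the letters and not a measured binding site.

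tRNA pseudogenes, copies of tRNA genes that the annotation calls non-functional, rarely had a summit. The optimal list held 123 of 612 tRNA genes but 3 of 209 pseudogenes (1.44%, 0.297 to 4.14), a difference of 18.7 percentage points (95% Newcombe interval 14.6 to 22.2). It was 29.1 points (23.7 to 33.5) in the replicate 1 list, which held 11 pseudogenes, and 35.9 points (30.7 to 40.2) in the replicate 2 list, which held 8. Most pseudogenes kept the B box letters (166 of 209, 79.4%, 73.3 to 84.7) and TTTT downstream (192 of 209, 91.9%). This comparison was added after values were seen. Among other short RNA genes, the optimal list held 14.5% of 346 snoRNA genes (10.9 to 18.6) and 5.43% of 129 snRNA genes (2.21 to 10.9). It held 0 of 20 rRNA genes (upper limit 16.8%), as did each replicate list. It held 1.53% of 261 miRNA genes, 0.026% of 15363 piRNA genes and 1.52% of 19973 protein-coding genes, and these classes differ in length, with a median of 72 bp for tRNA genes and 2027 bp for protein-coding genes.

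**Figure D1:**
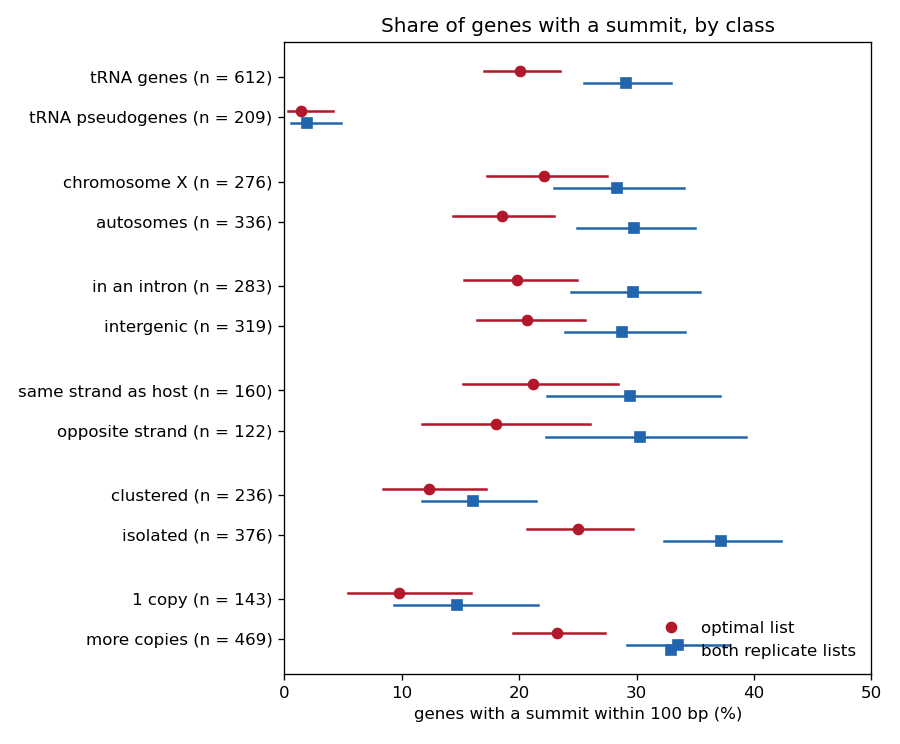
Share of genes with a summit within 100 bp (x axis, percent) in the optimal list (circles) and in both replicate lists (squares), by class of gene, with the number of genes in brackets. Lines are exact 95% intervals for counting error only; pseudogenes stand near 0 in both, clustered genes at 12.3% and single-copy genes at 9.79% in the optimal list.

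By strength, tRNA summits were found from rank 68 of the optimal list downwards and not among its strongest peaks. The authors' signal value, a peak score whose scale is not stated, had a median of 143 at the 120 optimal summits near a tRNA gene, with a range of 95.2 to 369, against 162 at the other nuclear summits. In the 5 equal steps of the optimal list, strongest first, tRNA summits made up 8.9%, 14.4%, 19.9%, 24.7% and 14.4% of the peaks. In the list of both alignments together the same steps held 16.1%, 6.64%, 1.83%, 1.37% and 0.459%. The first step of that longer list holds more peaks than the whole optimal list.

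The 10 strongest tRNA peaks are given by gene, with the signal in each replicate list, since these 2 values are the only repeat measurements. C04A11.t1, a tRNA-Leu gene between protein-coding genes on X with no identical copy, reached 369 in the optimal list (rank 68). Its signal was 182 in the replicate 1 list (rank 73) and 187 in the replicate 2 list (rank 68), so both libraries placed it alike. F41D9.t3, a tRNA-Asn gene on X in an intron of the anion transporter gene sulp-3, had 325, with 145 and 177 in replicates 1 and 2. The third was sup-5, a tRNA-Trp gene known from its amber suppressor alleles, which lies on III in an intron of fli-1, a gene for an actin-binding protein. It had 323 in the optimal list, 141 in replicate 1 and 182 in replicate 2. W03G11.t1, a tRNA-Lys gene on X, had 308, with 151 and 157. F15G9.t1, in an intron of the hemicentin gene him-4 and shown above, had 306, with 157 and 149. These 5 genes belong to 5 isotypes, that is, their tRNAs carry 5 different amino acids, and 4 of them are on X.

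The next were C42D8.t1 (tRNA-Ile, X), with 294 in the optimal list, 132 in replicate 1 and 165 in replicate 2, and T21B4.t1, a tRNA-Ile gene on II in an intron of the collagen gene col-85, with 275, 133 and 142. M02F4.t1 (tRNA-Gly, X) had 272, 126 and 151. ZC455.t1 had 263, 96.3 and 155, the widest gap between replicates of the 10, and C33G3.t2 had 260, 113 and 148. Signal was higher in the replicate 2 list for 9 of these 10 genes, F15G9.t1 being the exception, and the scale of the 2 lists need not be the same. On the chromosomes not yet named, the strongest were C37A2.t1 on I, a tRNA-Cys gene in an intron of the cyclin E gene cye-1, with 244 (125 and 115 in replicates 1 and 2), and K08E7.t1 on IV, a tRNA-Lys gene in an intron of the ABC transporter gene pgp-1, with 254 (100.4 and 154).

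The strongest genes left out of the optimal list lay just below its lower end, which follows from how they were ranked. Where the list of both alignments names the same summit, its signal and rank equal those of the optimal list. The 746 optimal peaks are thus its strongest, down to 95.2, and genes left out can only start below that. H08J11.t3, a tRNA-Gln gene in an intron of the apical junction gene ajm-1, had 95 in the list of both alignments, with 49.8 in replicate 1 and 45.2 in replicate 2, whereas the weakest optimal tRNA peak had 95.2. F25F6.t1 (tRNA-Glu) had 94.9, with 44.8 and 46.5. C52E12.t3, a tRNA-Ala gene in an intron of the kinesin gene unc-104, had 93.3, with 30.8 and 55.4. F09B9.t1 (tRNA-Arg) had 92.7 and T04D3.t2 (tRNA-Gly, in an intron of the guanylyl cyclase gene gcy-35) 91.5. These 5 were picked among genes with a summit in the list of both alignments and in each replicate list, so their presence there was set by the choice.

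Signals in the replicate lists went together across all tRNA genes with a summit in both. Over the 175 pairs of summits in both lists, Pearson's r of log10 signal was 0.795 and Spearman's rho 0.792. Over the 117 pairs at genes of the optimal list they were 0.705 and 0.69, and over the 58 other pairs -0.171 and -0.149. The optimal list was chosen on agreement and strength in these lists, so the split narrows the range of each part and the values are descriptions without a test. The pairs share the same genome and, in clusters, neighbouring DNA. The summits of a pair lay a median of 27 bp apart, and 70 of 175 pairs (40%) lay within 20 bp. Genes of the optimal list had a median signal of 67.5 in replicate 1 (27.9 to 182) and 80.7 in replicate 2 (37.0 to 187), and genes of the other lists only 34.0 (24.3 to 59.1) and 36.7 (26.1 to 129).

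**Figure D2:**
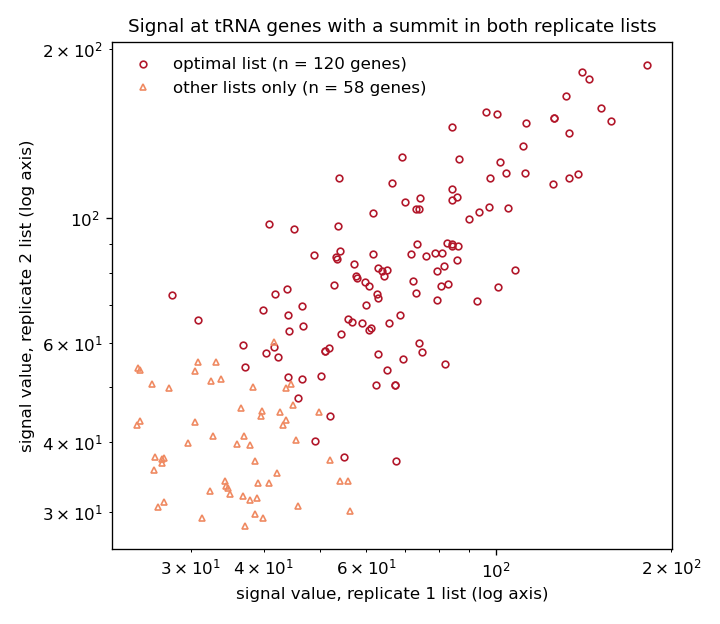
Signal value in the replicate 1 list (x axis) against the replicate 2 list (y axis), both on log axes with no stated unit, for tRNA genes with a summit in both. Circles are the 120 genes of the optimal list and triangles the 58 others, which form the cloud at the lower left with no rising trend of their own. The split by signal limits the range of the triangles.

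Summits lay on the gene rather than before it. In the optimal list the median position was 27 bp downstream of the annotated 5′ end (95% interval from order statistics 18 to 34, quartiles 6 and 55). Of the 123 genes, 85 had the nearest summit inside the gene (69.1%), 23 upstream (18.7%) and 15 downstream (12.2%). The medians were 26 bp in the replicate 1 list (210 genes) and 25 bp in that of replicate 2 (243 genes), with 55.7% and 54.3% inside. Most peaks have 1 fixed width with the summit at the centre (86.2% of the optimal list), so single positions are coarse and the offset of 27 bp between replicates is their measured spread. By strand of the gene, the median was 28 bp for 63 genes on the plus strand and 27 bp for 60 on the minus strand. The spread differed, with an upstream summit at 7 plus-strand genes (11.1%) and 16 minus-strand genes (26.7%). In the replicate 1 list these shares were 26.4% and 28.8%, and in that of replicate 2 25.6% and 28.8%. The optimal median was 29 bp for intronic genes and 22 bp for intergenic ones, and 33 bp on X and 26.5 bp on the autosomes. All of these medians lie within the interval of the overall median.

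Few genes lay near the limit of 100 bp. Only M02F4.t2 (tRNA-Glu) lay just inside it, 98 bp from a summit, and it shared that summit with its stronger neighbour M02F4.t1. Just outside lay C53C7.t1 (tRNA-Ser) at 107 bp and F15G9.t2 (tRNA-Ala) at 117 bp, the second beside F15G9.t1. In all, the 123 genes were assigned to 118 distinct optimal summits, of which 5 were shared by 10 genes.

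**Figure D3:**
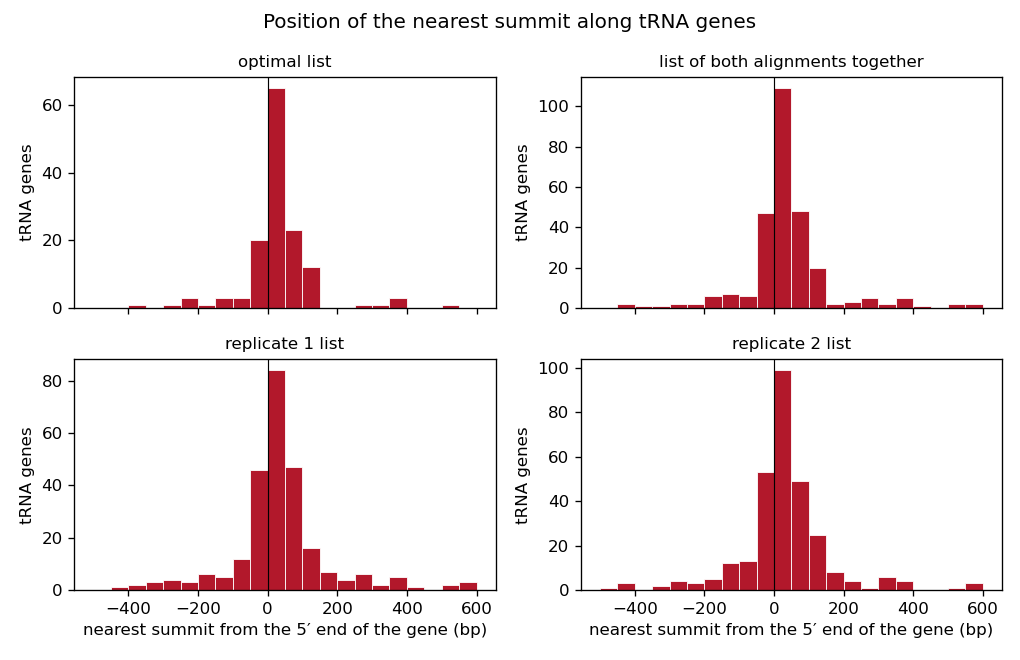
Number of tRNA genes (y axis) by the position of the nearest summit from the 5′ end of the gene (x axis, bp, positive in the direction of transcription, bins of 50 bp) in the 4 lists. In the optimal list 65 genes fall in the bin from 0 to 49 bp, 23 in the bin after it and 20 in the bin before it.

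Taken over all its genes, X, which holds 276 of the 612, did not differ from the autosomes beyond counting error in any of the 4 full lists. The highest and the lowest autosome stood apart in the replicate 1 list and among genes in both replicate lists. In the optimal list X had a summit at 61 genes (22.1%) and the autosomes at 62 of 336 (18.5%), a difference of 3.65 points (-2.71 to 10.1). The sign was the other way in the replicate 1 list (-4.43 points, -11.8 to 3.14) and in the replicate 2 list (-3.03 points, -10.7 to 4.76). The interval lay above 0 in 2 narrower sets, at 5.05 points (0.501 to 9.88) in the stronger 50% of the optimal list and 7.67 points (1.24 to 14.2) with the strongest replicate 2 peaks alone, but not with those of replicate 1 (2.67 points, -3.48 to 8.95). Among genes whose 100 bp upstream have over 40% G+C, the optimal list held 49 of 120 on X (40.8%, 32.0 to 50.2) and 57 of 214 on the autosomes (26.6%, 20.8 to 33.1). In both replicate lists together these were 49.2% and 42.1%. Single autosomes ranged from 14.1% on V (11 of 78 genes) to 22.8% on II (13 of 57), with 18.2% on I, 21.9% on III and 16.9% on IV. Chromosome V was lowest in both replicate lists as well, with 23.1% and 30.8%, and II highest, with 50.9% and 49.1%. The intervals of V (14.3 to 34.0) and II (37.3 to 64.4) did not overlap in the replicate 1 list. Nor did they for genes in both replicate lists (9.18 to 26.8 and 30.7 to 57.6). They did overlap in the replicate 2 list and in the optimal list, and this pair was picked for being lowest and highest.

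Position inside another gene made no difference beyond counting error either. Summits of the optimal list lay near 56 of 283 genes in an intron of a protein-coding gene (19.8%) and 66 of 319 intergenic genes (20.7%), a difference of -0.902 points (-7.28 to 5.58). Of 10 genes that overlapped an exon or the edge of a protein-coding gene, 1 had a summit. Intronic genes on the same strand as the host had one in 34 of 160 cases (21.2%) and those on the opposite strand in 22 of 122 (18.0%), a difference of 3.22 points (-6.37 to 12.3), and 1 gene had hosts on both strands. Genes within 500 bp of the start of a protein-coding gene had one in 21 of 95 cases (22.1%), against 102 of 517 farther away (19.7%). By strand of the chromosome, 63 of 298 plus-strand genes (21.1%) and 60 of 314 minus-strand genes (19.1%) had one. The intervals leave room for differences of several points in either direction.

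Genes with another tRNA gene close by had summits less often. Of 236 genes with a tRNA neighbour within 1000 bp, 29 had an optimal summit (12.3%, 8.39 to 17.2), against 94 of 376 isolated genes (25%), a difference of -12.7 points (-18.6 to -6.39). It was -21.4 points (-28.3 to -13.9) in the replicate 1 list and -15.7 points (-23.1 to -7.77) in the replicate 2 list. By size, clusters of 2 genes had 14.7% in the optimal list, of 3 genes 11.9% and of 4 genes 6.25% (1 of 16). Those of 5 and 6 genes had 0 of 10 and 0 of 12. The replicate lists showed no such steady fall. There, clusters of 2, 3 and 4 genes had 23.7%, 19.0% and 25% in replicate 1. They had 35.9%, 16.7% and 31.2% in replicate 2. Clusters of 5 and of 6 genes were below those of 2 genes in both replicate lists. The 22 clusters of 3 or more genes held 6 genes with an optimal summit among 80 (7.5%, 2.8 to 15.6). Among the 143 genes without an identical copy the difference was -4.02 points, with an interval that includes 0 (-12.9 to 8.54). Isolated genes on X had the highest share, 45 of 141 (31.9%, 24.3 to 40.3), against 49 of 235 isolated genes on the autosomes (20.9%, 15.8 to 26.6). In both replicate lists together these were 41.8% and 34.5%. Clustered genes had 11.9% on X and 12.9% on the autosomes in the optimal list. No interval was computed for the difference between X and autosomes within isolated genes.

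Both clusters of 6 genes are on X. F22F1.t2 to F22F1.t7 hold tRNA genes for Ser, Asp, Met and Ile within chrX:8154445-8156707. Only F22F1.t6 (tRNA-Met) had a summit in any list, at 38 bp upstream in the list of both alignments with signal 79.6 and in the replicate 2 list with 58.4. F28H6.t2 to F28H6.t7 are 6 identical tRNA-His genes within chrX:14135045-14137010, and none had a summit in any list. Their surroundings are repeated too. Of the 30-base words of each gene with 100 bp on either side, the share found once in the genome was 72.0% for F28H6.t2 at the edge, between 0 and 46.9% for the others. How reads from repeated DNA were placed was not given in the sources used here. Over all tRNA genes, 0 of the 27 with at most 50% unique words had an optimal summit (upper limit 12.8%). The share was 18.1% of the 105 with over 50 to 75%, 24.0% of the 421 with over 75 to 90% and 5.08% of the 59 with over 90%. The part of read placement in the cluster difference was not tested. Among genes with over 50% unique words the cluster difference was -12.3 points (-18.4 to -5.67). Among clusters of 3 or more genes, the one with most genes near an optimal summit was C16B8.t1 to C16B8.t3 (tRNA-Pro, X), where C16B8.t2 and C16B8.t3 shared a single summit of signal 194 and C16B8.t1 had none. In 4 clusters of 2 both genes lay near an optimal summit, and in each of them the 2 genes shared 1 summit.

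Genes without an identical copy also had summits less often. The 612 genes comprise 200 distinct sequences, of which 143 occur in 1 gene. An optimal summit lay near 14 of these 143 (9.79%) and 109 of the 469 genes with further copies (23.2%), a difference of -13.5 points (-19.0 to -6.48). It was -19.2 points (-26.5 to -10.8) and -20.8 points (-28.5 to -12.0) in the lists of replicates 1 and 2. The share was 31.3% with 2 to 4 copies, 24.7% with 5 to 9, 19.8% with 10 to 14 and 21.8% with 15 or more, so it did not go on rising with copy number. Genes with over 90% unique words had 3 summits among 59 (5.08%, 1.06 to 14.1). The part of read placement in the copy difference was not tested.

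By amino acid, each of the 20 standard isotypes had at least 1 gene with an optimal summit. The share ranged from 38.5% for tRNA-Cys (5 of 13, 13.9 to 68.4) to 10% for tRNA-His (2 of 20, 1.23 to 31.7), and these intervals overlap. The selenocysteine tRNA gene had no optimal summit but one in both replicate lists. The 5 genes with no amino acid in RefSeq had none in the optimal list.

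Identical genes differed in whether they had a summit. All 20 families of at least 10 identical genes, 317 genes in all, held genes with an optimal summit and genes with none in any list. Their share with an optimal summit ran from 8.33% to 41.7% with a median of 20%, close to that of all tRNA genes. The largest, 29 tRNA-Gly genes, had 5 in the optimal list and 14 in no list. Among them M02F4.t1 had 126 and 151 in replicates 1 and 2, while C12C8.t6, in an intron of the glucosyltransferase gene uggt-2 on I, had its nearest summit of any list 3084 bp away. Of 25 identical tRNA-Lys genes, 8 had one, among them W03G11.t1, whereas the nearest to F15D3.t1 on I was 656 bp away. In the pair of tRNA-Pro genes printed above, T23F1.t2 had 162 in the optimal list, 84.0 in replicate 1 and 90.2 in replicate 2. The optimal summit lay nearer to the tRNA-Lys gene T23F1.t1, at 11 bp, than to T23F1.t2, at 56 bp, and so did that of replicate 2 (8 and 59 bp), whereas the replicate 1 summit lay inside T23F1.t2 and 119 bp from T23F1.t1. This pair is therefore a weaker example than those of tRNA-Gly and tRNA-Lys. ZK970.t1, in an intron of the mitochondrial protease gene clpp-1, had its nearest summit 1061 bp away. Only 49.4% of the words in and around ZK970.t1 are unique, against 70.0% for T23F1.t2, and the part of this in the pair was not tested.

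**Figure D4:**
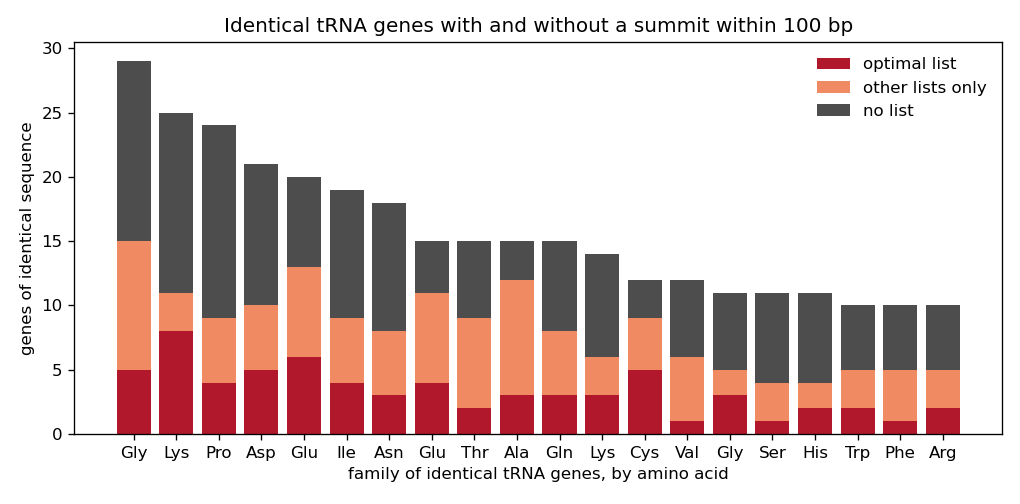
Genes of identical sequence (y axis, number) in the 20 families of 10 or more, by amino acid (x axis), split into genes with a summit in the optimal list, in other lists only and in no list. Each family has all 3 kinds, and the largest, of 29 tRNA-Gly genes, has 5, 10 and 14.

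The DNA just upstream also differed between genes with and without a summit. The 100 bp before the gene had a median G+C content of 48.0% in the optimal list (quartiles 43.5 and 51.5), 44.0% in other lists only and 38.0% in no list, against a median of 36.0% before pseudogenes and an overall content of 35.4% in the nuclear genome. The 100 bp after the gene had 30%, 32.0% and 30%. The difference was near the gene: from 80 to 100 bp upstream the means were 46.1% in the optimal list, 38.9% in other lists only and 36.2% in no list, and at 140 to 160 bp they were 35.9%, 34.9% and 35.4%. Read the other way, the share of genes with an optimal summit was 1.94% (3 of 155) at an upstream G+C of up to 35%, 11.4% over 35 to 40%, 18.3% over 40 to 45%, 36.2% over 45 to 50% and 47.4% (36 of 76) over 50%. Genes over 40% exceeded those up to 40% by 25.6 points (19.7 to 31.3), and by 36.5 points in each replicate list. G+C content can itself alter the recovery of DNA in sequencing, and the part of that here was not tested. Pseudogenes over 40% had 3 summits among 95 (3.16%), and pseudogenes up to 40% had 0 among 114 (upper limit 3.18%).

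**Figure D5:**
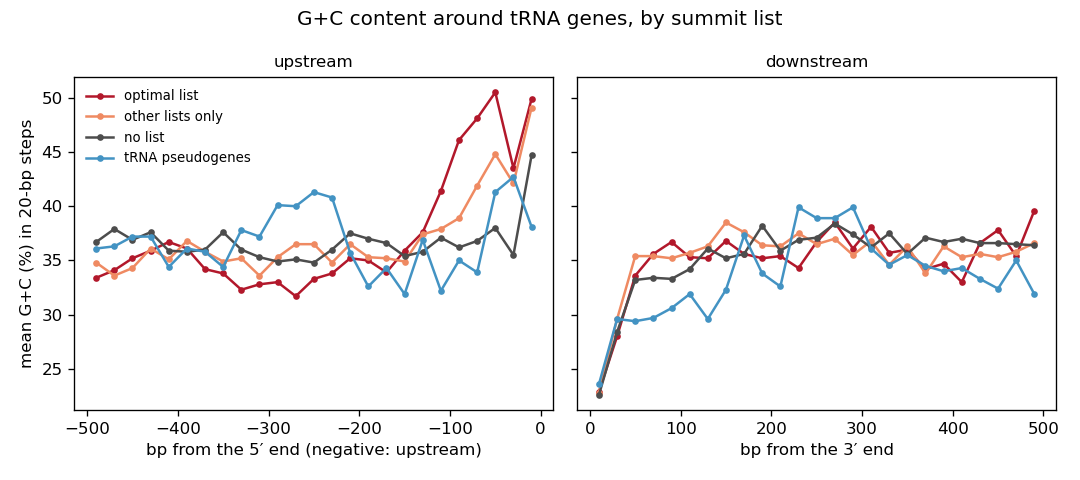
Mean G+C content (y axis, percent, steps of 20 bp) upstream of the 5′ end and downstream of the 3′ end of tRNA genes (x axes, bp) by list, and of tRNA pseudogenes. The optimal list rises above genes of no list within about 100 bp upstream, and all sets fall together just downstream.

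Within families of identical genes, where the gene itself cannot differ, the same was seen. The median upstream G+C content was higher for genes with an optimal summit than for the rest in 17 of the 20 families, equal in 2 and lower in 1. In the tRNA-Lys family of 25 genes it was 50% against 40%, in the tRNA-Asp family of 21 genes 46.0% against 36.5%, and in the largest tRNA-Pro family 42.0% in both. The medians of genes with a summit rest on few genes. They rest on at most 8, in that tRNA-Lys family, and on 1 in the tRNA-Val, tRNA-Ser and tRNA-Phe families. The count of 17 families is therefore a description. The printed tRNA-Pro pair runs against the trend, with 45% before T23F1.t2 and 48% before ZK970.t1. Clustering and upstream G+C were also related to the summits jointly. Among genes over 40%, 19 of 99 clustered (19.2%) and 87 of 235 isolated genes (37.0%) had an optimal summit, and among genes up to 40% it was 10 of 137 (7.3%) and 7 of 141 (4.96%). For single-copy genes the shares were 17.1% over 40% and 1.49% up to 40%, and for genes with more copies 36.0% and 7.58%.

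Alternating G and A residues were common in the same stretch. GAGAGA on either strand occurred in the 100 bp upstream of 51 of 123 genes of the optimal list (41.5%, 32.7 to 50.7), 32 of 155 of the other lists only (20.6%, 14.6 to 27.9) and 26 of 334 of no list (7.78%, 5.15 to 11.2). It occurred before 5 of 209 pseudogenes (2.39%), in 8.77% of the same windows of protein-coding genes and in 5.13% of all 100-bp windows of the nuclear genome. Downstream of the gene the shares were 2.44%, 3.87% and 3.59%, and from 401 to 500 bp upstream 2.44%, 6.45% and 6.29%. C04A11.t1 above carries it several times as TCTCTC, while F15G9.t1, ZC455.t1 and C33G3.t2 among the strongest carry none. The word was chosen after these windows had been examined, so its share is a description.

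Genes with the word had an optimal summit in 51 of 109 cases (46.8%) and genes without it in 72 of 503 (14.3%), a difference of 32.5 points (22.8 to 42.2). In the replicate 1 list it was 36.4 points (26.2 to 45.6) and in the replicate 2 list 38.8 points (28.7 to 47.3). At an upstream G+C over 40% the shares were 53.6% with the word and 24.4% without it, and up to 40% they were 24.0% (6 of 25) and 4.35%. The word began a median of 54 bp upstream of the gene (quartiles 67.5 and 39 bp). The median summit position nevertheless lay inside the gene, at 18 bp with the word and 33.5 bp without it in the optimal list. It was 19 and 33 bp in replicate 1 and 14 and 31 bp in replicate 2. In the optimal list the summit lay upstream of the gene for 11 of the 51 genes with the word and 12 of the 72 without it. The median optimal signal was 162 with the word and 139 without it. Whether any of these summits depends on the tagged protein was not tested, since no immunoprecipitation without the tag was analysed here.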

How the data were processed

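Per the deposited file listings, the authors called peaks on each replicate with a control and on both alignments together, and derived the optimal list from these by how well peak ranks agreed between replicates (irreproducible discovery rate, IDR). The aligner, the peak caller, their settings and the cut-off of that step were not given in the sources used here. From the deposited ce11 lists 2 values were used per peak: the signal value, a score of unstated scale given by the authors, used only within a list or as a correlation, and the summit offset in bp. The lists carry no counts, so depth is unknown. The ce10 lists and control libraries were not used here.

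All 18324 peaks ended inside WBcel235 chromosomes, so Ensembl 115 and RefSeq coordinates were used directly, counted from 1. All 612 tRNA genes matched RefSeq, 607 with an amino acid. Clusters joined genes with gaps of at most 1000 bp. Differences of shares carry Newcombe 95% intervals (statsmodels 0.14.6), and Python 3.11.15 with SciPy 1.17.1 was used. No test between groups was possible with 1 group. Gene matching was tested on planted summits.

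Named genes were the 10 strongest, the strongest per chromosome and the 5 strongest missed by the optimal list but with a summit in every other list. Also named were a pair from each of the 3 largest identical families, the largest clusters, and genes at the 100 bp limit. Members and lists were chosen with earlier results of these data known. Copy number, uniqueness, pseudogenes, G+C content and GAGAGA were added after values were seen. Sequences with a copy on chromosome I are not printed.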

Additional observations from a re-analysis of the deposited data

How the results depend on the processing

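The share of tRNA genes with an optimal summit (20.1%) was 19.1% within 50 bp, 20.8% within 200 bp, 13.9% with the summit inside the gene, 8.82% with the stronger 50% of the list, 37.9% in the relaxed list of both alignments and 9.79% for genes of unique sequence. With as many of the strongest peaks of 1 replicate as the optimal list holds, leaving out the other gave 18.5% to 20.4%. Clustered minus isolated kept its sign in 13 of 13 alternatives, with -4.71 points in the stronger 50% and -4.02 for unique sequences, the second with an interval that includes 0, and -12.6 to -11.4 without a replicate. Added after the data were seen, 1 copy minus more copies was -5.13 points in the stronger 50%, -23.0 in the relaxed list and -13.9 to -12.2 without a replicate. The GAGAGA difference was 22.2 points with the summit inside the gene, 19.4 in the stronger 50% and 25.5 to 34.3 without a replicate. The upstream G+C difference was 18.2 points with the summit inside the gene, 12.2 in the stronger 50%, 38.5 in the relaxed list, 15.6 for unique sequences, 19.3 with 50 bp upstream, 16.6 with 200 bp and 23.9 to 24.9 without a replicate. The pseudogene difference was 12.5, 8.35 and 33.6 points with the summit inside the gene, in the stronger 50% and in the relaxed list, and 17.0 to 19.0 without a replicate. It was 8.35 points for the 143 tRNA genes of unique sequence against all 209 pseudogenes. With over 50% unique words in both it was 19.2 points, for 585 tRNA genes and 165 pseudogenes. Fewer or more peaks change these by construction. X minus autosomes ran from -2.39 to 7.67 points, 2.67 to 7.67 without a replicate, with an interval above 0 in the stronger 50% (5.05 points) and without replicate 1 (7.67), intronic minus intergenic from -1.94 to 2.55 (-1.14 to -0.862), and same minus opposite strand from -3.59 to 11.2 (-0.492 to 0.912), each changing sign. The median position ran from 19 to 30 bp, both without a replicate. No paired analysis was possible because there is 1 group.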
